A study of Danio rerio with 4 samples.

Results

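Of the genes that the authors called different between centroacinar cells and the other sorted cells of the adult zebrafish pancreas, 41 encode subunits of potassium, calcium or sodium channels. They were chosen by name alone, as the genes whose name begins with kcn, cacn or scn, the last followed by a digit, with case ignored. They are 41 of 3020 distinct listed genes: 34 of 1812 in the table of replicate 1 and 10 of 1560 in the table of replicate 2, with 3 in both. Potassium channel genes made up 20 of the 34 and 5 of the 10, calcium channel genes 9 and 4, and sodium channel genes 5 and 1.

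Centroacinar cells (CAC), which lie where the pancreatic ducts end inside the acini, and non-centroacinar cells (non-CAC) were separated by fluorescence-activated cell sorting from the dissociated pancreas of adult fish of the AB strain. Total RNA of each population was sequenced in 2 replicates, 4 libraries in all. The labels give no genotype, transgene, treatment or sex for either population, and neither the marker used for the sort nor the number of fish behind a library is given in the sources used here. Each replicate has its own table, which compares 1 CAC library with 1 non-CAC library.

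Voltage-gated channels are built from a pore-forming subunit with a voltage sensor and from auxiliary subunits that set trafficking and gating. Potassium channels mostly hold the membrane near rest or bring it back there, calcium channels couple voltage to calcium entry and secretion, and sodium channels drive the upstroke of the action potential. In the mammalian pancreas, basolateral potassium channels help drive ductal chloride and bicarbonate secretion, and voltage-gated calcium channels trigger insulin release from beta cells.

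What is known of each gene is a ratio between the libraries of a replicate and a posterior probability that the libraries differ. No level per library is given, so depth and abundance are unknown and levels cannot be compared between genes. The ratio comes in 2 versions, a posterior and an uncorrected fold, and the posterior one is given unless stated otherwise. The headers do not name the numerator of the ratio. A gene is therefore described as lying below 1 or above 1, and no gene is assigned to CAC or to non-CAC. Every listed gene has a posterior probability of at least 0.99, and the tables are silent on any channel gene below it, whether equal in both populations or too scarce to judge. With 1 library per population in a table there is no replicate error within it, and the only replicate check is whether a gene lies on the same side in both tables. That check takes the ratio to run the same way in both tables, which the headers do not state. Of the 352 genes in both tables, 216 lay below 1 in both and 115 above 1 in both. The labels do not state that different fish gave each replicate, and the spread between replicates may be technical.

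Channel genes lay mostly above 1 in replicate 1, with 31 of 34 above and 3 below. That is 91.2% above 1, where 66.6% of all genes listed in that table lay above and 33.4% below. In replicate 2, 4 of 10 channel genes lay above 1 and 6 below, or 40.0% above, against 42.9% above and 57.1% below among all genes listed there. The share in replicate 2 is near that of the whole table and is no result about channel genes. The split also depends on the reference, which may be a ratio of 1 or the middle of a table. The median of a table is taken over called genes alone. In replicate 1 it was at log2 6.02, among the genes above 1, so a gene under it can still be far above 1. With each table centred on its own median log2 ratio, 20 of the 34 lay above and 14 below in replicate 1, where all listed genes are split evenly by construction, and the counts of 4 and 6 in replicate 2 did not move. The share of channel genes above the middle in replicate 1 was thus 91.2% against 66.6% of all genes as deposited, and 58.8% against 50.0% after centring.

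**Figure D1:**
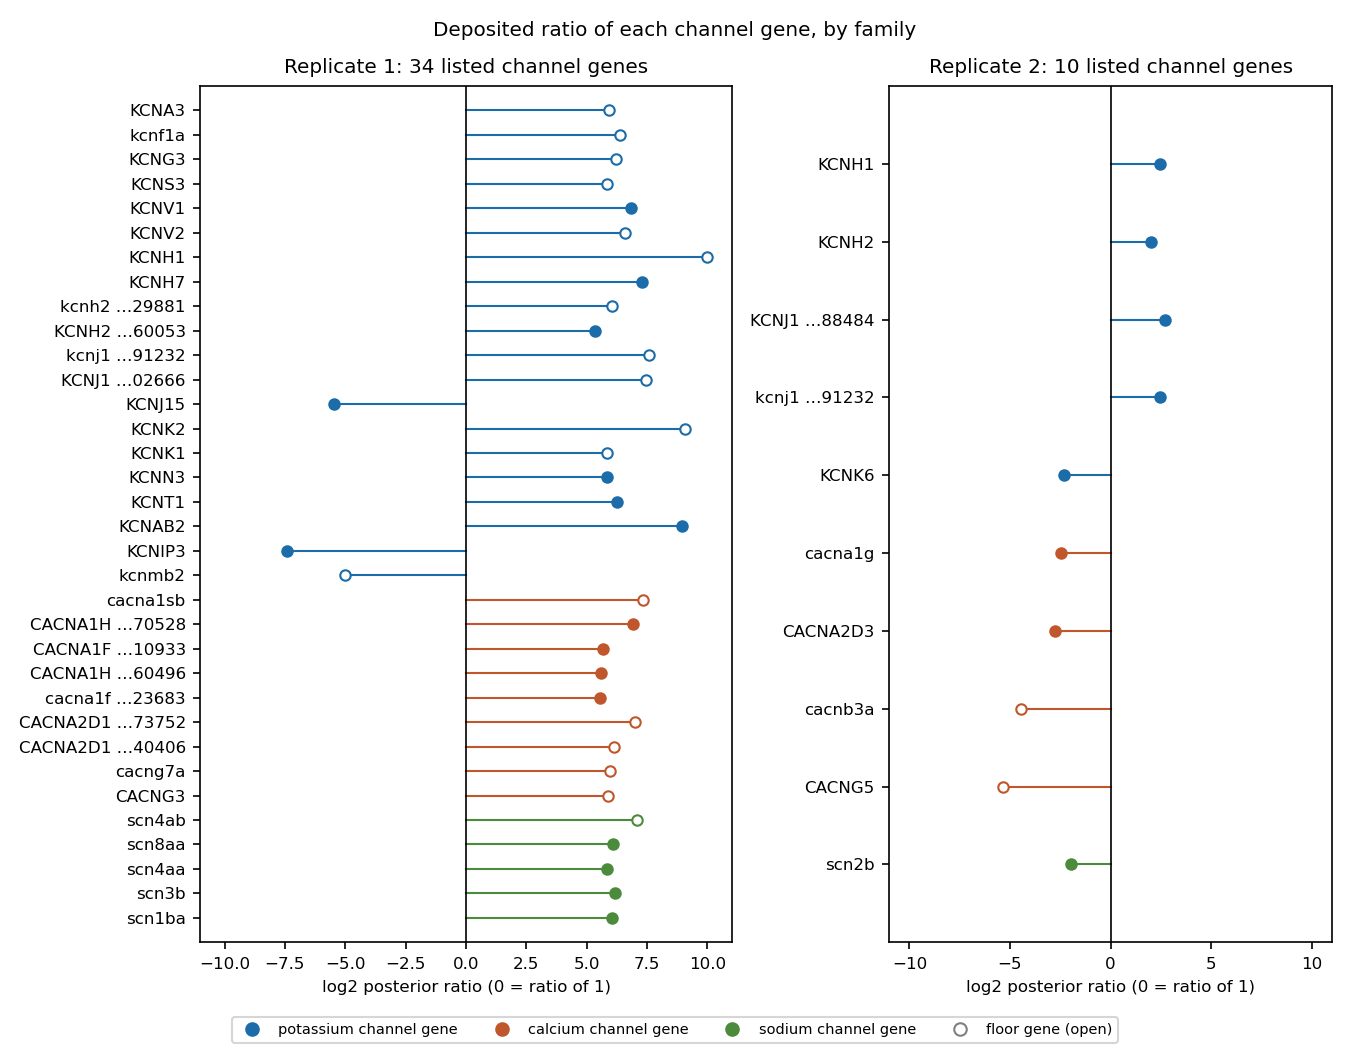
The horizontal axis is the log2 posterior ratio between the libraries of a replicate, 0 standing for a ratio of 1, and each row is a channel gene, ordered by family, with the last digits of its identifier where 2 rows share a name. Colours give the ion, and open circles mark floor genes, whose 2 deposited folds differ by over 10 times. In replicate 1, 31 of 34 genes lie right of 0 as deposited (20 after centring on the table median), and in replicate 2, 4 of 10 do.

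Only 3 channel genes were in both tables, KCNH1, kcnj1 and KCNH2, and all 3 lay above 1 in both. They are 7.32% of the 41, where 11.7% of all listed genes (352 of 3020) were in both tables. Among those 352, 115 (32.7%) lay above 1 in both and 216 (61.4%) below 1 in both, so 3 of 3 channel genes were on the less common side. Of these 3, none lay below 1 in both and none changed side. The other channel genes were in 1 table each and could do neither.

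KCNH1, the ether-à-go-go voltage-gated potassium channel, was at a posterior ratio of 1000.2 (log2 9.97) in replicate 1 and 5.46 (log2 2.45) in replicate 2 in the authors' deposited tables. It ranked 7 from the top among the 1812 genes of replicate 1 and 388 from the top among the 1560 of replicate 2 by the authors' deposited ratio. The gene kcnj1 (ENSDARG00000091232, Zv9 chromosome 18, 47105271 to 47122032) encodes an inward rectifier that in mammals recycles potassium across the apical membrane of renal tubule cells. Its authors' deposited ratio was 193.03 (log2 7.59) in replicate 1 and 5.46 (log2 2.45) in replicate 2. KCNH2 (ENSDARG00000060053), the channel of the ERG type whose mammalian counterpart repolarises the heart, was at 40.6 (log2 5.34) and 4.05 (log2 2.02) in the authors' deposited tables.

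The order of KCNH1, kcnj1 and KCNH2 in replicate 1 covers log2 ratios from 9.97 to 5.34, while in replicate 2 the same genes lie between 2.45 and 2.02. The deposited ratio of replicate 1 was 183.0 times that of replicate 2 for KCNH1, 35.32 times for kcnj1 and 10.01 times for KCNH2. Part of such a gap is fixed by what each of the authors' deposited tables holds, since no ratio above 1 was under 35.3 in replicate 1 or under 2.98 in replicate 2. KCNH1 and kcnj1 are also floor genes in replicate 1 and not in replicate 2. Their uncorrected ratios were 144300 and 27732 in replicate 1, against 5.55 and 5.63 in replicate 2. For both genes the gap, and any mean or spread over the replicates, thus depends on the fold read. After centring, KCNH2 lay below the median of replicate 1, and KCNH1 and kcnj1 stayed above the medians of both tables. A moderated limma test over the 352 shared genes, blocked by replicate, gave Benjamini-Hochberg adjusted p-values of 0.0678 for KCNH1, 0.0740 for kcnj1 and 0.119 for KCNH2 (unadjusted 0.00480, 0.0223 and 0.0934), with mean log2 ratios of 6.21, 5.02 and 3.68 and standard deviations of 5.31, 3.64 and 2.35 (n = 2 replicates, both above 1). None passed at 0.05, and the test called 4 of the 352 below 1 (1.14%) and 0 above 1 (0%). At an unadjusted p of 0.05 it called 104 below 1 (29.5%) and 93 above 1 (26.4%), but a gene enters this test only with a large ratio in each table, which its p-values do not allow for.

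**Figure D2:**
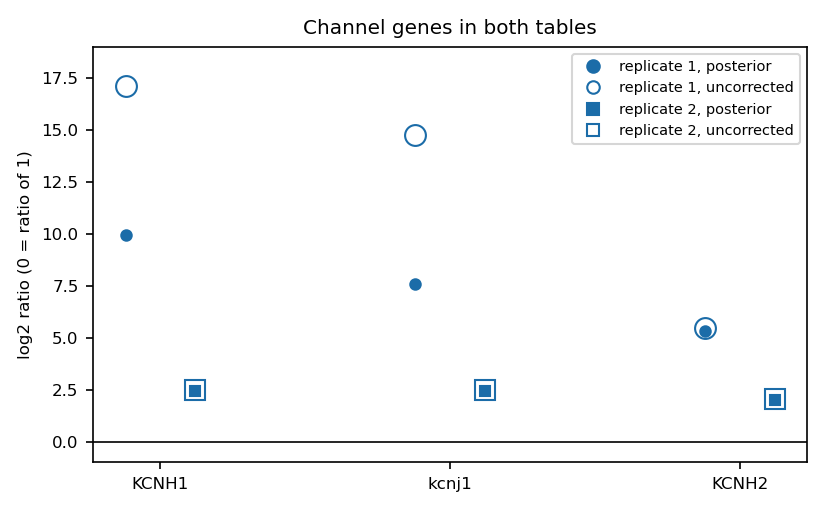
The vertical axis is the log2 ratio between the libraries of a replicate for the 3 channel genes in both tables, with replicate 1 as circles and replicate 2 as squares, posterior fold as small filled symbols and uncorrected fold as larger open ones. All values lie above 0. KCNH1 and kcnj1 depend on the fold in replicate 1 alone, where their uncorrected ratios were 144.3 and 143.7 times the posterior ones.

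The 2 deposited folds tell floor genes from the rest. A floor gene is one whose uncorrected and posterior folds differ by over 10 times, and the factor was at least 138.4 in the floor genes of replicate 1 and 79.7 in those of replicate 2, against at most 9.48 and 2.39 in the other genes. In floor genes of replicate 1 the posterior fold less 1 was 0.006925 times the uncorrected fold less 1, without exception, and in floor genes of replicate 2 the multiple was 0.011857, with each fold taken as its inverse where it lay below 1. The ratio of a floor gene thus depends strongly on which fold is read, while its side and its order among floor genes do not. Of the channel genes above 1 in replicate 1, 17 of 31 were floor genes, against 63.6% of all genes above 1 in that table, and of the 3 below 1 only kcnmb2 was. In replicate 2, cacnb3a and CACNG5 were floor genes, both below 1, and none of the 4 genes above 1 was.

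**Figure D3:**
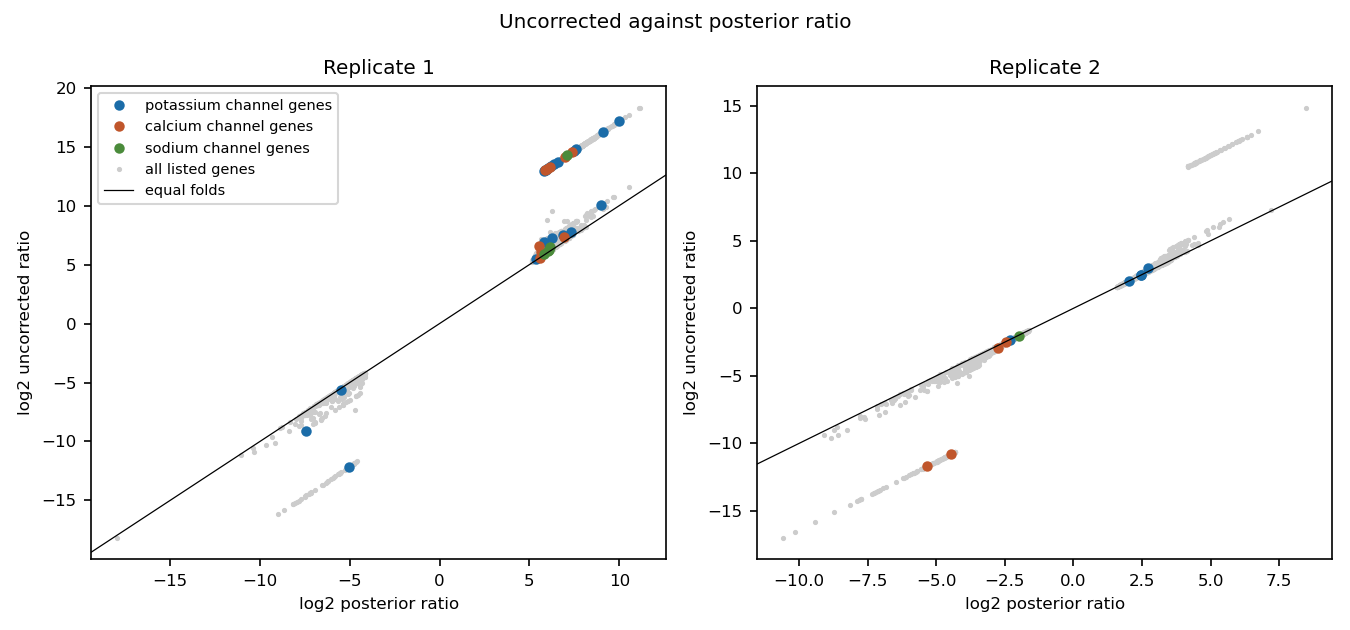
Each point is a listed gene, with its log2 posterior ratio on the horizontal axis and its log2 uncorrected ratio on the vertical axis, and channel genes are coloured by ion. Floor genes form the separate bands away from the line of equal folds. In replicate 1, 18 of 34 channel genes are in these bands (17 above 1 and 1 below), and in replicate 2, 2 of 10 are.

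Potassium channels of the kcnh family, the relatives of ether-à-go-go, all lay above 1 where listed, 4 of 4 in replicate 1 and 2 of 2 in replicate 2 (3 of 4 and 2 of 2 after centring). Of all listed genes, 66.6% and 42.9% lay above 1 in replicates 1 and 2. Besides KCNH1 and KCNH2, the listed kcnh genes were KCNH7, an ERG-type channel of the nervous system in mammals, and a second gene named kcnh2 (ENSDARG00000029881, Zv9 chromosome 2, 23695889 to 23788133). KCNH7 stood at 156.4 in the authors' deposited table for replicate 1, with an uncorrected ratio of 213.1. The second kcnh2 was at 66.7 in the authors' deposited table for replicate 1 and is a floor gene. Neither was listed in replicate 2. KCNH2 and kcnh2 have separate identifiers but one name, and reads may be split between such copies, so the values of each are uncertain.

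Inward rectifiers of the kcnj family lay on both sides. The kcnj1 copies were above 1 wherever listed, also after centring, and the single exception in the family was KCNJ15. Besides the copy in both tables, KCNJ1 (ENSDARG00000002666) stood at 175.7 in the authors' deposited table for replicate 1, as a floor gene, and KCNJ1 (ENSDARG00000088484) was at 6.50 in that of replicate 2. These 3 identifiers share a name, and reads may be shared among them. KCNJ15, an inward rectifier of epithelia in mammals (Zv9 chromosome 10, 124452 to 126379), was at 0.0227 (log2 -5.46) in the authors' deposited table for replicate 1, with nearly the same uncorrected ratio of 0.0205. It is the only pore-forming channel gene below 1 in replicate 1, and it was not listed in replicate 2.

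Two-pore potassium channels, which carry leak current, were represented by 3 genes, each in 1 table. KCNK2, a channel gated by stretch and lipids in mammals, was at 537.2 (log2 9.07) in the authors' deposited table for replicate 1 and ranked 44 from the top of 1812. KCNK1 was at 56.6 in the authors' deposited table for replicate 1, with a posterior probability of 0.990303, close to the smallest listed. Both are floor genes, and KCNK1 fell below the table median after centring. KCNK6, a weak inward rectifier of the same subfamily as KCNK1, was below 1 at 0.202 (log2 -2.31) in the authors' deposited table for replicate 2 (Zv9 chromosome 18, 44579556 to 44591915).

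Electrically silent subunits carry no current alone and change the gating of the Kv2 channels they join. All 5 that were listed, kcnf1a, KCNG3, KCNS3, KCNV1 and KCNV2, lay above 1 in replicate 1, where 66.6% of all listed genes did. After centring 4 of 5 lay above the median, KCNS3 being the exception. None of the 5 was listed in replicate 2. KCNV1 (Zv9 chromosome 16, 43657485 to 43670306) was at 115.4 in the authors' deposited table for replicate 1 and was the only one that is not a floor gene. KCNV2, known in mammals from photoreceptors, was at 94.7 in the authors' deposited table for replicate 1, and kcnf1a at 83.6. KCNG3 was at 74.1 and KCNS3 at 57.7 in the authors' deposited table for replicate 1. Neither table lists a gene under the name kcnb, which would encode the Kv2 partner.

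The remaining pore-forming potassium channel genes were each the only one of their family and lay above 1 in replicate 1 alone. KCNA3, the Kv1.3 channel known from lymphocytes in mammals, was at 59.8 in the authors' deposited table for replicate 1 and is a floor gene. KCNN3, a calcium-activated channel of small conductance, was at 56.7 and KCNT1, a sodium-activated channel, at 75.7 in the authors' deposited table for replicate 1. After centring, KCNT1 stayed above the median, and KCNA3 and KCNN3 did not.

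Auxiliary subunits of potassium channels held the lowest ratio among the channel genes and one of the highest. KCNIP3, a calcium-binding protein that modulates Kv4 channels and can also act as a transcriptional repressor in mammals, was at 0.00583 (log2 -7.42) in the authors' deposited table for replicate 1. It ranked 39 from the bottom of 1812 by the authors' deposited ratio, with an uncorrected ratio of 0.00177. The gene kcnmb2, a beta subunit of the large-conductance calcium-activated channel (Zv9 chromosome 2, 7602708 to 7613741), was at 0.0306 (log2 -5.03) in the authors' deposited table for replicate 1, as a floor gene. KCNAB2, a cytoplasmic beta subunit with an oxidoreductase fold, was above 1 at 497.6 (log2 8.96) in the authors' deposited table for replicate 1, with an uncorrected ratio of 1038.1 and rank 54 from the top. Neither table lists a gene under the name kcnd, for Kv4, or kcnma, for the large-conductance pore.

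Of the calcium channel genes, all 9 listed in replicate 1 were above 1, where 66.6% of the table was, and all 4 listed in replicate 2 were below 1, where 57.1% of the table was. After centring, 4 of 9 lay above in replicate 1 (44.4%), near the even split of the whole table, and 4 of 4 lay below in replicate 2. No calcium channel gene was in both tables, where 11.7% of all listed genes were. Among pore-forming subunits in replicate 1, cacna1sb, the L-type channel of skeletal muscle (Zv9 chromosome 8, 26620552 to 26661346), was at 162.6 in the authors' deposited table and is a floor gene. CACNA1H, a low-voltage-activated T-type channel, appears under 2 identifiers, at 121.3 (ENSDARG00000070528) and 48.2 (ENSDARG00000060496) in the authors' deposited table for replicate 1. The L-type CACNA1F, known from the retina in mammals, also has 2 rows, at 50.9 and, as cacna1f on Zv9 chromosome 8, at 46.8 in the authors' deposited table for replicate 1. Both, and the lower CACNA1H, lay under the table median after centring. Copies of one name may share reads.

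Another T-type gene, cacna1g, was the pore-forming calcium channel gene of replicate 2 and lay below 1, at 0.180 (log2 -2.47) in the authors' deposited table. Its locus, Zv9 chromosome 12, 29276262 to 29637717, spans 361 kb, more than any other channel gene with a readable locus. The T-type genes thus include CACNA1H above 1 in one pair of libraries and cacna1g below 1 in the other. Neither has a value in the other table, so no difference between them within a table can be given.

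The alpha-2-delta gene CACNA2D1, which raises channel number at the membrane, was above 1 under both of its identifiers, at 127.0 and 69.8 in the authors' deposited table for replicate 1. CACNA2D3 was below 1, at 0.148 (log2 -2.75) in the authors' deposited table for replicate 2. Of the gamma subunits, several of which regulate AMPA receptors in mammals, cacng7a was at 62.4 and CACNG3 at 59.3 in the authors' deposited table for replicate 1, both under the table median after centring. CACNG5 was at 0.0248 (log2 -5.33) in the authors' deposited table for replicate 2, the lowest channel gene there, at rank 86 from the bottom of 1560. The cytoplasmic beta subunit gene cacnb3a (Zv9 chromosome 23, 14209497 to 14292297) was at 0.0450 (log2 -4.47) in the authors' deposited table for replicate 2. The 4 auxiliary calcium channel genes of replicate 1 are all floor genes, as are cacnb3a and CACNG5, whereas CACNA2D3 is not.

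Sodium channel genes also lay above 1 in replicate 1, 5 of 5, where 66.6% of all listed genes did. After centring 4 of 5 lay above the median, scn4aa being the exception. The gene pair scn4aa and scn4ab are the zebrafish copies of the skeletal muscle channel. In the authors' deposited table of replicate 1, scn4ab (Zv9 chromosome 3, 22486137 to 22529879) was at 137.1 as a floor gene and scn4aa (Zv9 chromosome 12, 5964502 to 5988747) at 57.1. The neuronal channel gene scn8aa was at 67.0 in the authors' deposited table for replicate 1, with an uncorrected ratio of 77.4. Of the beta subunits, which resemble cell adhesion molecules, scn3b was at 72.1 and scn1ba at 65.4 in the authors' deposited table for replicate 1. The only sodium channel gene of replicate 2, scn2b, was also a beta subunit and lay below 1, at 0.251 (log2 -1.99) in the authors' deposited table (Zv9 chromosome 15, 12916550 to 12940855).

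Grouped by role, 24 of 25 pore-forming and 7 of 9 auxiliary subunits lay above 1 in replicate 1 (15 of 25 and 5 of 9 after centring). In replicate 2, 4 of 6 pore-forming and 0 of 4 auxiliary subunits did, with or without centring. Among all listed genes, 66.6% lay above 1 in replicate 1 and 42.9% in replicate 2, and 50.0% lay above the median in each after centring. The 25 include the 5 electrically silent subunits, which carry no current alone and all lay above 1. Whether the roles differ was not tested. Among genes above 1 in replicate 1, the median log2 ratio of the 31 channel genes was 6.17, against 6.55 over all 1206. Of these 31, 6 were among the 301 genes farthest from 1 on that side and 11 among the 301 nearest to 1. Only KCNH1, KCNK2 and KCNAB2 were among the 181 highest ratios of the 1812 in replicate 1.

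Channel genes were listed in replicate 1 more often than genes at large, and in replicate 2 about as often. A table of current gene names holds 193 channel genes by the same name rule, and 30 of them (15.5%) were listed in replicate 1, against 4.36% of all 29201 genes in that name table. By side, 28 of the 193 (14.5%) lay above 1 and 2 (1.04%) below, against 2.97% and 1.39% of all genes. In replicate 2, 7 of the 193 (3.63%) were listed, against 3.52% of all genes, with 3 (1.55%) above 1 and 4 (2.07%) below, against 1.40% and 2.13%. The share listed in replicate 1 was 14.7% for potassium channel genes (19 of 129), 14.0% for calcium channel genes (7 of 50) and 28.6% for sodium channel genes (4 of 14). The counts cover the 32 of 41 channel gene identifiers found in the name table and 3 more that match by current symbol alone. Both the 193 and the 29201 include genes that may not have been measured. The 29201 also take in any gene without a symbol, which the 193 cannot. The difference in share was not tested. The 3 added ones are inward rectifier genes that the table of replicate 1 lists under clone names, kcnj21 and a pair of KCNJ3 copies. All 3 lay above 1 in replicate 1, with log2 ratios of 6.27 for kcnj21 and of 6.59 and 5.88 for the KCNJ3 copies in the authors' deposited table, the last under the table median after centring.

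**Figure D4:**
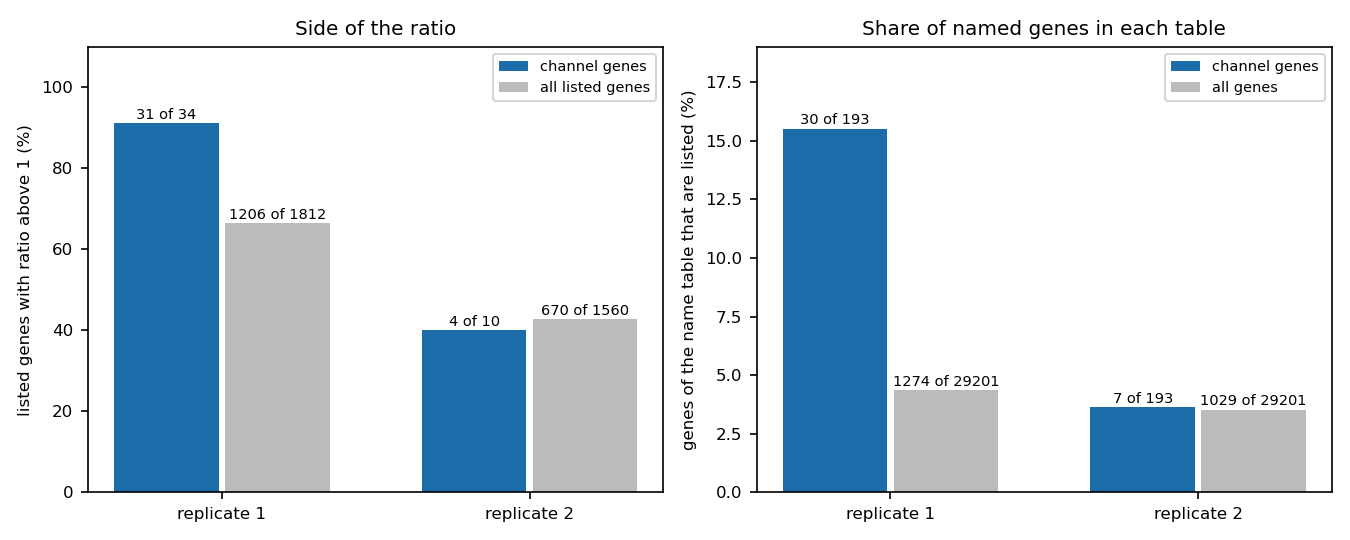
The left panel gives the percentage of listed genes with a ratio above 1, for channel genes and for all listed genes of each replicate. The right panel gives the percentage of genes in the table of current names that are listed in each replicate. Channel genes exceed all genes in both panels in replicate 1 (91.2% against 66.6%, or 58.8% against 50.0% after centring, and 15.5% against 4.36%) and lie near them in replicate 2.

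Locus spans differed between the channel groups. In replicate 1 the median span was 11.9 kb over the 8 potassium channel genes with a readable locus, 40.8 kb over the 3 calcium and 24.2 kb over the 5 sodium channel genes, and 24.1 kb over these 16 together, against 13.0 kb over 1477 listed genes. In replicate 2 it was 24.3 kb over 5 channel genes in replicate 2, against 8.89 kb over 1392 listed genes. Spans ran from 1.61 kb for kcnf1a to 361 kb for cacna1g. Locus span includes introns and is not transcript length, and its part in the calls was not tested.

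Other channels, receptors, pumps and their partners were counted from lists of names. Of 42 such genes listed in replicate 1, 33 lay above 1 and 9 below (28 and 14 after centring). Of 22 listed in replicate 2, 6 lay above and 16 below (8 and 14 after centring). Among all listed genes, 66.6% lay above 1 in replicate 1 and 57.1% below 1 in replicate 2, with an even split after centring. In replicate 1, 6 of 6 TRP channel genes and 8 of 9 genes for acetylcholine, GABA and glycine receptors lay above 1 (4 of 6 and 7 of 9 after centring), whereas 4 of 7 chloride channel genes lay below 1 there and 4 of 4 in replicate 2 (5 of 7 and 4 of 4 after centring). Of these genes, 9 were in both tables, 6 below 1 in both and 3 above 1 in both, which is near the split of all shared genes (61.4% below and 32.7% above). Those below 1 were the chloride channel genes clcn1b, cftr and clic2, the ATP-gated cation channel gene p2rx1, the kainate receptor gene grik5 and the connexin gene cx30.3. In the authors' deposited tables, p2rx1 was at log2 -6.42 in replicate 1 and -4.67 in replicate 2, grik5 at -4.36 and -2.91, cx30.3 at -6.94 and -4.38, and clic2 at -6.20 and -2.01. Those above 1 were chrna3, a nicotinic receptor subunit of autonomic ganglia, at 6.47 and 4.88, PKD2L2, of the polycystin family, at 7.12 and 1.62, and the connexin gene cx32.2 at 6.38 and 2.24 in the same authors' deposited tables, as log2 ratios of replicates 1 and 2. Floor genes among these 9 were chrna3 and PKD2L2 in replicate 1 and p2rx1 in replicate 2. The difference between the genes of these lists and the 41 was not tested.

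Markers of several cell types were listed with the channel genes. Of 27 neural and glial markers, 4 were listed in replicate 1 and 3 in replicate 2, all above 1 (2 of 4 and 3 of 3 after centring), with elavl3 and foxd3 in both. Neural genes outside the list lay on both sides in replicate 1. Below 1 were, among others, BASP1 at log2 -7.11, nrn1 at -6.71 and shank3a at -6.50. Above 1 were, among others, SYT2 at 5.34, nlgn1 at 7.70 and nova1 at 6.24. The floor genes SV2A at 7.93, MAP1B at 7.32, crmp1 at 8.54 and nrxn3a at 7.84 were above 1 too. Neural genes outside the list were not counted by side, so these examples give no share. Among 12 muscle and pericyte markers, ckmb, notch3 and mylka were listed in replicate 1 and notch3 and mylka in replicate 2. All lay below 1 with or without centring. In replicate 1 scn4ab, cacna1sb and scn4aa lay above 1, with scn4aa under the table median after centring. These few markers do not stand for muscle as a whole. Muscle genes outside the list lay on both sides in replicate 1. Kinds of muscle were not told apart, and these genes were not counted by side. Below 1 were, among others, myl9b at log2 -5.63, cald1l at -5.67, MYLK at -4.90 and SYNPO2L at -5.89. Above 1, on the side of scn4ab, cacna1sb and scn4aa, were, among others, MYOM1 at 7.23, myhb at 6.14, tmod4 at 5.77 and MYOM3 at 5.51. After centring, tmod4 and MYOM3 lay under the table median. The floor genes tnni2a.3 at 7.65, CAPN3 at 7.18, myoz1b at 7.08, tnnt2d at 6.59 and myhz1.2 at 6.03 were above 1 too. Leukocyte markers of the list used lay above 1 in 7 of 7 cases in replicate 1 and 6 of 8 in replicate 2 (4 of 7 and 6 of 8 after centring). Other leukocyte genes lay on both sides in replicate 1, with btk at log2 -5.97, blnk at -5.62, rhoh at 6.51 and DOCK2 at 5.49. Endocrine markers of the list used were few. In replicate 1 neurog3 lay below and rfx6 above 1, both as floor genes, and in replicate 2 ins lay above 1. Other genes with endocrine roles lay on both sides in replicate 1, with nkx2.2a at log2 -6.42, pdx1 at -5.93 and arx at 6.35. Endothelial markers lay above 1 in 3 of 4 cases in replicate 1 (2 of 4 after centring) and were absent from the table of replicate 2. Acinar markers were listed in replicate 2 alone, 16 of 16 above 1, and ductal markers lay below 1 in 13 of 13 cases in replicate 1 and 13 of 14 in replicate 2, the acinar and ductal counts being the same after centring. The part of these cell types in the channel gene ratios was not tested, and fewer cells of a type and less RNA per cell cannot be told apart in these libraries.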

How the data were processed

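Total RNA of the sorted cells was made into TruSeq libraries, per the labels' protocols. For each replicate the authors deposited a list of called genes, per the file headers, with the posterior probability that expression is equal or that it differs, used here as a score between 0 and 1, and with a posterior and an uncorrected fold, both linear ratios. The submitters' processing notes name RSEM, Zv9 and danRer7, without version or role; loci are given on Zv9 from those notes. The calling model and depth are not given in the sources used here. Loci were unreadable in 335 and 168 rows of replicates 1 and 2, where a copy number in the gene name had displaced them.

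The posterior fold was used on a log2 scale with no pseudocount. No test was possible within a table (1 library per population). The within-replicate ratios of shared genes were tested with limma 3.58.1 in R 4.3.3, adjusted by Benjamini-Hochberg at 0.05. The procedure was also run on simulated normal values with a common spread and no selection for large ratios. The real ratios carry that selection, so the simulated run cannot show whether the p-values given here hold. Other values came from Python 3.11.15 with pandas 2.3.3. The replicate numbers pair libraries because the labels assign the CAC and the non-CAC library of a number to one table.

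Every channel gene is named. Other channel, pump and receptor genes are named where they were in both tables, from lists matched by the start of the name, or by exact name for cell markers; kal1a, TMCC1 and CX3CR1 matched by spelling only and were removed after the matches were seen. The members and lists were chosen with earlier results of these data known. Alternatives were the uncorrected fold, a stricter probability, a 4-fold threshold, removal of floor genes, centring, matching by current symbol, pore-forming subunits alone, each replicate alone and, chosen after seeing the data, counting rows of one name once.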

Additional observations from a re-analysis of the deposited data

How the results depend on the processing

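All 44 channel gene values kept their side under the uncorrected fold, although 26 of them moved by over 1.5 times. The side of a floor gene could not change, since its folds are tied by a fixed multiple. The 4-fold threshold, matching by current symbol and counting rows of one name once kept each count within 1.5 times. In replicate 1 the 4-fold threshold could remove no gene, since no listed ratio there lay between 0.0571 and 35.3. A posterior probability of equal expression under 0.001 left 10 of the 31 genes above 1 in replicate 1, and 3 below and 2 above in replicate 2. The share of all listed genes left at that setting is not given here. Without floor genes, 14 genes above 1 and 2 below were left in replicate 1, and KCNH2 alone, 1 of 3 genes, was left above 1 in both. Removing floor genes took 767 of all 1206 genes above 1 in replicate 1 (63.6%) and 52 of all 606 below 1 (8.58%). Among channel genes there it took 17 of the 31 above 1 and 1 of the 3 below 1. The share of 66.6% above 1 therefore does not apply to the genes left. The share above 1 among all genes left is not given here. Centring subtracted 6.02 in replicate 1 and -1.90 in replicate 2 on the log2 scale and gave 14 genes below and 20 above the median in replicate 1. Pore-forming subunits alone gave 1 gene below 1 in replicate 1 and 2 in replicate 2. With a single table in place of both, the count above 1 ranged from 4 to 31 and the count below 1 from 3 to 6. Blocked by replicate, limma called 0 of the 3 genes above 1 in both at an adjusted p of 0.05, and no other count was changed by it. Depth per library is unknown, so no limit of detection can be given.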
